A study of Mus musculus with 6 samples.

Results

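The bile acid synthesis enzymes are the 10 genes Cyp7a1, Hsd3b7, Cyp8b1, Akr1d1, Cyp27a1, Cyp7b1, Slc27a5, Amacr, Acox2 and Baat, found by symbol among the 19764 genes of the deposited expression table. They were measured in primary hepatocytes of Bl6/N mice, in 3 libraries labelled TNF and 3 labelled Control. Both groups were plated with 1 µM corticosterone, kept for 6 h with 0.1 µM, spent 16 h in starvation medium (5 mM glucose) and were then exposed for 8 h to 1 µM corticosterone, which activates the glucocorticoid receptor, and 10 µM WY-14643, which activates the nuclear receptor PPARα. The TNF group received 1 ng/ml TNF at the same time and the Control group received vehicle, so the comparison is of TNF added together with these ligands against the ligands alone. The cells were freshly isolated, not a line. The labels name neither age nor sex, nor say whether equal replicate numbers share an animal.

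Hepatocytes make bile acids from cholesterol by a neutral (classic) route that Cyp7a1 opens at the sterol ring, and by an acidic (alternative) route in which Cyp27a1 oxidises the side chain and Cyp7b1 the ring. Hsd3b7 and Akr1d1 then reshape the ring, and Cyp8b1, the sterol 12α-hydroxylase, decides how much of the product becomes cholic acid. Slc27a5 attaches coenzyme A, Amacr and Acox2 prepare the side chain for shortening in the peroxisome, and Baat joins the finished acid to taurine or glycine. Transcription of the ring hydroxylases is held in check by the bile acid receptor FXR (Nr1h4) through SHP (Nr0b2), and driven by HNF4α (Hnf4a) and LRH-1 (Nr5a2).

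Library totals lay between 17612060 and 25114289 reads. The cells responded to TNF: Icam1, a leukocyte adhesion molecule, was at 178, 195 and 147 CPM (reads scaled to a common library size) in TNF 1 to 3, against 53.5, 41.8 and 38.7 CPM in Control 1 to 3, and the NF-κB feedback genes Tnfaip3 and Nfkbia were at 350% and 197% of their Control means. Hepatocyte markers were abundant except for Ass1, at 3.11, 2.15 and 3.20 CPM in TNF and 3.65, 3.19 and 3.65 CPM in Control. Of the 8 markers 4 fell in the fit with the replicate block described next, where 11.2% of all genes tested were lower. Of these Cps1, which makes carbamoyl phosphate for urea synthesis, was at 482, 1076 and 654 CPM in TNF, against 1392, 2880 and 1654 CPM in Control, and fell by 1.43 on the log2 scale (adjusted p 2.71e-11 with the block and 0.204 without, limma). Alb did not pass (change -0.06) and was between 23427 and 38482 CPM in TNF and between 23455 and 41051 CPM in Control. Of 11 macrophage markers only Cd68 reached 1 CPM in any library, and Clec4f, Timd4, C1qb and Vsig4 had no more than 3 reads over all libraries. Summed endothelial markers spanned 76.5 to 144 CPM in TNF and 79.1 to 152 CPM in Control, stellate markers 20.2 to 46.6 and 18.9 to 68.4 CPM, and cholangiocyte markers 46.0 to 66.3 and 40.2 to 49.7 CPM, the last led by Sox9, which rose by 0.58 (log2) with an adjusted p of 6.87e-05 in limma with the same block. The leading endothelial marker, Stab2, fell by 0.19 (adjusted p 0.0342) and the leading stellate marker, Reln, by 0.38 (adjusted p 0.0284) in that fit; neither passed without the block. Their part in the enzyme values was not tested, and in bulk RNA fewer cells of a type and less RNA per cell cannot be told apart.

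The change of a gene is its log2 difference, TNF minus Control, on the log2(CPM + 1) scale. Each was tested in limma across 12293 genes, without a block (unpaired) and with the replicate number as a block (blocked), at a Benjamini-Hochberg adjusted p of 0.05. Same-numbered libraries deviated together, so the blocked fit stands beside the unpaired one, and "fell" and "rose" are used of genes past the blocked threshold. Of the 10 enzymes 9 had enough reads to be tested; Cyp7a1 had not. In the unpaired fit Cyp8b1 alone was called, where 0.431% of all genes tested were called in either direction and 0.0732% as lower. In the blocked fit 6 of the 9 fell and none rose, where 20.6% of all genes tested were called, 11.2% lower and 9.4% higher. At an unadjusted p under 0.05 the blocked fit had 7 lower and 0 higher, and blocked limma-voom on recovered reads called 5 lower and 0 higher. Every TNF library was below every Control library for 5 of the 10 enzymes, 4 of them tested, against 6.66% of all genes tested, and above for none, against 6.59%. TNF was below Control in each of the 3 pairs for 8 of the 10, 7 of them tested, against 27.7%. Of the 10, 7 had an adjusted p under 0.05 in the authors' deposited table, against 15.2% of all its genes. The median change of the 9 was -0.24, against -0.01 over all genes tested.

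**Figure D1:**
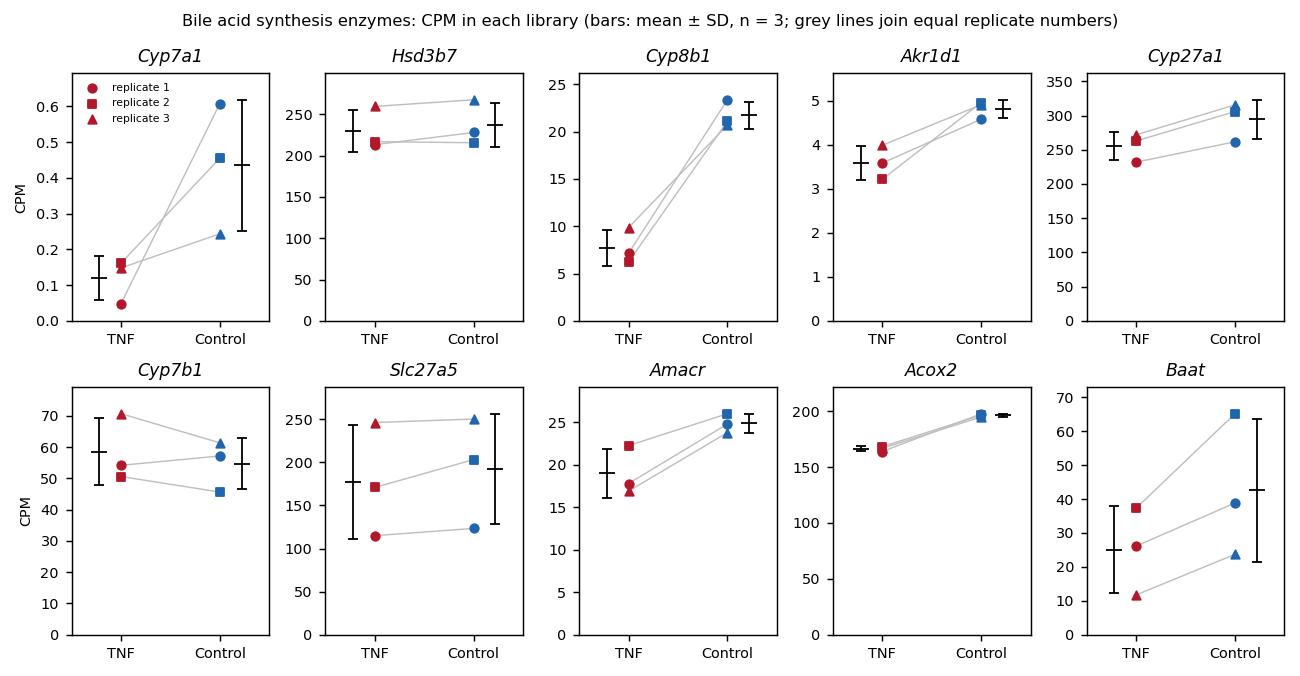
CPM of each bile acid synthesis enzyme in the 3 TNF and 3 Control libraries; marker shapes give the replicate number, grey lines join equal numbers and black bars give mean ± SD (n = 3). Cyp8b1 lies between 6.22 and 9.86 CPM in TNF and between 20.7 and 23.4 CPM in Control, while Slc27a5 and Baat differ more between replicate numbers than between treatments.

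Cyp8b1 had the largest change of the tested enzymes and the 4th largest fall among all 12293 genes. The gene lies on the minus strand of chromosome 9 (mm10, 121914356 to 121916305) and has a single exon, so its counted 1950 bases hold no intron. The 250 bases before its start, and those of an enzyme with a small fall (Cyp27a1) and of one that did not pass (Hsd3b7), are shown 5′ to 3′ on the gene's strand to set the most and least changed genes side by side. They come from a set of RefSeq start site windows on GRCm38.p6, the build also called mm10. The set covered 5 of the 10 enzymes. The Cyp27a1 window ends at 74713534, short of 74713574, where both the counted span and the GENCODE gene start. Its positions therefore count from the RefSeq start site used for the window, not from the start of the gene as counted. Capitals mark matches to CAAAGTCCA (an HNF4 motif), AGGTCA (the core hexamer of nuclear receptor sites), TATAAA and an NF-κB motif (GGG and CC set apart by 5 bases of any kind), searched on both strands. Matches to different motifs do not overlap in these windows, but the NF-κB matches of Hsd3b7 overlap each other and share a stretch of capitals.
Cyp8b1 (chr9:121916306-121916555, minus strand): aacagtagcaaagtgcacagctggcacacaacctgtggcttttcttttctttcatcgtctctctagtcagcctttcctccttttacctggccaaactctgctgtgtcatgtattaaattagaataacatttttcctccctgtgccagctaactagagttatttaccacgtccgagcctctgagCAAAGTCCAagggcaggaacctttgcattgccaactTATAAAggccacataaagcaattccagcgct
Cyp27a1 (chr1:74713285-74713534, plus strand): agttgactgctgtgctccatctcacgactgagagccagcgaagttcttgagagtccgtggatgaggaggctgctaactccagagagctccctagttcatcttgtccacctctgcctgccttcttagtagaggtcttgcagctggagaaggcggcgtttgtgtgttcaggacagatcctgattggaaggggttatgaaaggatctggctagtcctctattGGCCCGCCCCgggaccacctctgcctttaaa
Hsd3b7 (chr7:127800359-127800608, plus strand): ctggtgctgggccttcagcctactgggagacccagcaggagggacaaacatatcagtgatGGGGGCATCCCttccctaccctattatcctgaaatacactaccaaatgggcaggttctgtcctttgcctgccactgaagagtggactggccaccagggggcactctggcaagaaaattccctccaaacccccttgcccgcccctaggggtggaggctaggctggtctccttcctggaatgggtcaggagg

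The Cyp8b1 window held CAAAGTCCA from 67 to 59 bases before the start, a match found in 0.384% of the 32851 RefSeq windows of this length, and TATAAA from 31 to 26 bases before it (12.4% of windows). It held neither AGGTCA (14.0% of windows) nor the NF-κB motif (45.8%). The Cyp27a1 window held the NF-κB motif once, on the minus strand, and the Hsd3b7 window held 3 overlapping matches to it. Outside the windows printed, that of Akr1d1 held AGGTCA at 2 places on the minus strand. Each window of the 2 Acox2 start sites held the NF-κB motif at 2 places. These 2 Acox2 windows overlap, and the match GGACACACCC is the same site in both. CAAAGTCCA was found in no other enzyme's window. These are matches of letters only, and binding was not measured.

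Cyp8b1 stood at 7.13, 6.22 and 9.86 CPM in TNF 1, 2 and 3 (149, 116 and 200 reads), against 23.4, 21.1 and 20.7 CPM in Control 1, 2 and 3 (423, 510 and 425 reads). The groups did not overlap: each TNF library was below each Control library. The mean was 7.74 ± 1.89 CPM in TNF and 21.7 ± 1.44 CPM in Control (SD, n = 3 each), so TNF cultures held 35.6% of the Control level. The log2 change was -1.40 (unpaired SE 0.16, 95% interval -1.78 to -1.01), 2.64-fold lower on the CPM + 1 scale. In limma the adjusted p was 0.0229 without the block and 8.23e-07 with it. By replicate number TNF was at 30.5%, 29.5% and 47.7% of Control, so replicate 3 showed the smallest difference. The 3 pairs' log2 changes had an SD of 0.35, and the blocked SE of 0.11 draws on the spread shared between genes. The unpaired call was lost without any one of TNF 1, TNF 2, Control 1, Control 2 or Control 3 (adjusted p 0.0637 to 0.117, limma) and held without TNF 3 (0.0318); the blocked call held whichever replicate number was left out.

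**Figure D2:**
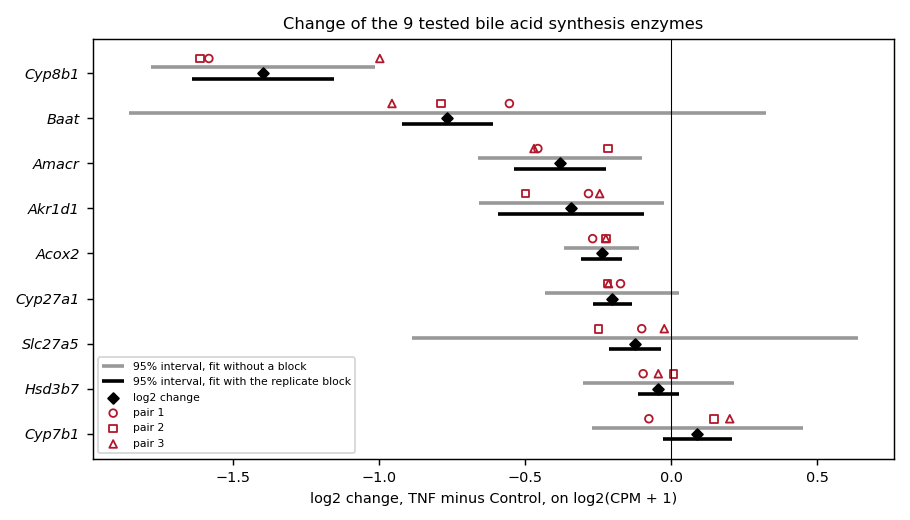
Log2 change (TNF minus Control, log2(CPM + 1)) of the 9 tested enzymes, with the 95% interval of limma without a block (grey) and with the replicate block (black), and the change in each pair of equal replicate number (open symbols). Cyp8b1 at -1.40 lies apart from the others, which run from -0.77 (Baat) to 0.09 (Cyp7b1).

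Cyp7a1, the rate-limiting enzyme of the neutral route, was barely detected. It had 1, 3 and 3 reads in TNF 1, 2 and 3 (0.0479, 0.161 and 0.148 CPM), against 11, 11 and 5 reads in Control 1, 2 and 3 (0.608, 0.455 and 0.243 CPM). Each TNF value was below each Control value, but no TNF library held more than 3 reads, a level (0.124 to 0.166 CPM) that could also be missed altogether. Over the groups, 7 reads in TNF against 27 in Control gave a ratio of 0.272 (exact conditional 95% interval 0.100 to 0.641, counting error only). The exact two-sided permutation p over libraries was 0.1, the smallest that 3 against 3 can give. With no filter on reads limma gave a change of -0.35, with an adjusted p of 0.393 unpaired and 0.0712 with the block, and in the authors' deposited table the adjusted p was 0.00714. The gene lies on the minus strand of chromosome 4 (6265612 to 6275631).

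Neither of the enzymes that reshape the ring passed the test. Akr1d1, the reductase that gives bile acids their bent ring (chromosome 6, 37530173 to 37568815), was at 3.59, 3.22 and 3.99 CPM in TNF, against 4.58, 4.96 and 4.92 CPM in Control. Each TNF value was below each Control value, yet the change of -0.34 (unpaired SE 0.14) passed neither fit (limma adjusted p 0.513 unpaired, 0.0525 blocked). Over the 12 fits with the block, the blocked fit just given included, Akr1d1 passed in 1, with a pseudocount of 4 CPM. Its adjusted p over these fits lay between 0.0373 and 0.275 (limma). In the authors' deposited table its adjusted p was 0.0143. At 60 to 120 reads a library, Akr1d1 was the least abundant enzyme tested. The processed pseudogene Gm7463 overlaps the span of Akr1d1 on the same strand in GENCODE M21.

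Hsd3b7, the dehydrogenase that follows the ring hydroxylases (chromosome 7, 127800609 to 127803802), was at 213, 217 and 259.6 CPM in TNF, against 228, 216 and 268 CPM in Control. The groups overlapped almost wholly, and replicate 3 was the highest in both. Its change was -0.04 (unpaired SE 0.11), with a blocked 95% interval of -0.11 to 0.03 and limma adjusted p values of 0.998 (unpaired) and 0.404 (blocked). GENCODE M21 places Gm49388 on the same strand over this gene and 9430064I24Rik on the opposite strand, and reads of the 3 cannot be told apart here.

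Of the acidic route's enzymes Cyp27a1 fell and Cyp7b1 did not pass. Cyp27a1, the mitochondrial side-chain oxidase (chromosome 1, 74713574 to 74737890), was at 232, 263 and 272 CPM in TNF, against 262, 306 and 316 CPM in Control. The ranges overlapped, since TNF 2 and TNF 3 lay above Control 1, but TNF was at 88.6%, 86.0% and 86.1% of Control within the pairs. Cyp27a1 fell by 0.20 on the log2 scale (blocked SE 0.03, adjusted p 0.000298 blocked and 0.664 unpaired, limma). It passed in all 12 fits with the block, the blocked fit just given included. Cyp7b1, the oxysterol hydroxylase of the same route (chromosome 3, 18071950 to 18243338), was at 54.2, 50.6 and 70.7 CPM in TNF, against 57.2, 45.6 and 61.4 CPM in Control. It was lower in pair 1 and higher in pairs 2 and 3. Its change was 0.09 (unpaired SE 0.15), with a blocked 95% interval of -0.03 to 0.21 and an adjusted p of 0.286 blocked and 0.995 unpaired (limma). Without replicate 1 the blocked change was 0.17 with an adjusted p of 0.0332 (limma), the only alternative in which any enzyme was called higher.

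Among enzymes of the side chain, both peroxisomal ones fell. Acox2, the branched-chain acyl-CoA oxidase (chromosome 14, 8225511 to 8259019), was at 164, 168 and 167 CPM in TNF, against 198, 196 and 195 CPM in Control. The groups did not overlap and each was narrow (166 ± 2.23 and 196 ± 1.39 CPM, SD, n = 3 each). Acox2 fell by 0.24 on the log2 scale (unpaired SE 0.06; adjusted p 0.176 unpaired and 0.000107 blocked, limma), to 84.7% of the Control mean. Amacr, the racemase that readies the side chain for that oxidase (chromosome 15, 10981756 to 10996624), was at 17.8, 22.3 and 16.9 CPM in TNF, against 24.8, 26.0 and 23.8 CPM in Control. Its groups did not overlap either. Amacr fell by 0.38 on the log2 scale (unpaired SE 0.12; adjusted p 0.370 unpaired and 0.00187 blocked, limma), to 76.4% of the Control mean.

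The conjugating enzymes varied more between replicate numbers than with TNF. Baat, the amidating transferase (chromosome 4, 49489418 to 49506558), was at 26.1, 37.3 and 11.7 CPM in TNF, against 38.8, 65.2 and 23.7 CPM in Control. The groups overlapped, and the mean of a pair was 2.89 times as high in replicate 2 as in replicate 3. Within pairs TNF was at 67.3%, 57.2% and 49.5% of Control, and Baat fell by 0.77 on the log2 scale (blocked SE 0.07, adjusted p 4.14e-06; unpaired SE 0.47, adjusted p 0.814, limma). Slc27a5, the bile acyl-CoA synthetase (chromosome 7, 12988346 to 12998192), was at 115, 171 and 246 CPM in TNF, against 123, 203 and 250.1 CPM in Control. Both groups were lowest in replicate 1 and highest in replicate 3, by 2.08 times over the pair means. The blocked fall of 0.12 (log2, SE 0.04) was just past the threshold (adjusted p 0.0453; unpaired 0.998, limma). Slc27a5 passed in 7 of the 12 fits with the block, a count that includes the blocked fit just given. It was not called without replicate 2 (adjusted p 0.373, limma) and changed sign in the unpaired fit without TNF 1 or Control 3.

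Per kilobase of exon, in the GENCODE transcript paired with each RefSeq identifier, the enzymes covered a wide range of levels. Cyp27a1 was the highest, at 135 ± 11.1 CPM per kb in TNF and 156 ± 15.2 in Control, followed by Hsd3b7 at 126 ± 14.1 and 130 ± 14.9. The ranges of these 2 overlapped within each group. Slc27a5 (77.5 ± 28.8 in TNF, 84.0 ± 28.0 in Control) overlapped Acox2 (57.2 ± 0.768 and 67.5 ± 0.477), and Cyp7b1 (27.0 ± 4.95 and 25.3 ± 3.76) came next, overlapping Baat (12.9 ± 6.60 and 21.9 ± 10.8) in Control. Cyp8b1 ranked 8th in TNF at 3.97 ± 0.970 CPM per kb and 7th in Control at 11.1 ± 0.740, having exchanged places with Amacr (7.37 ± 1.11 and 9.65 ± 0.431), and the ranges of this pair did not overlap in either group. Akr1d1 (1.33 ± 0.143 and 1.79 ± 0.0765) and Cyp7a1 (0.0285 ± 0.0148 and 0.104 ± 0.0438) were the lowest. Reads were counted over introns too, and per kilobase of the whole counted span Hsd3b7 came first in both groups. By that length Cyp8b1, which has no intron, ranked 5th in TNF and 4th in Control, having exchanged places with Acox2. The order of the enzymes therefore depends on the length used.

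Set against other enzymes of the same library, where library scaling cancels, Cyp8b1 was lower with TNF. Its CPM was 13.2%, 12.3% and 13.9% of that of Cyp7b1 in TNF 1, 2 and 3, against 40.9%, 46.2% and 33.7% in Control 1, 2 and 3. The log2 ratio differed by -1.61 ± 0.32 (SD of 3 pairs) for Cyp7b1, by -1.31 ± 0.40 for Cyp27a1 and by -1.47 ± 0.39 for Hsd3b7. In each of the 3 ratios the groups did not overlap, and the exact two-sided permutation p was 0.1, also when adjusted over the 3, which is the smallest the design allows.

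**Figure D3:**
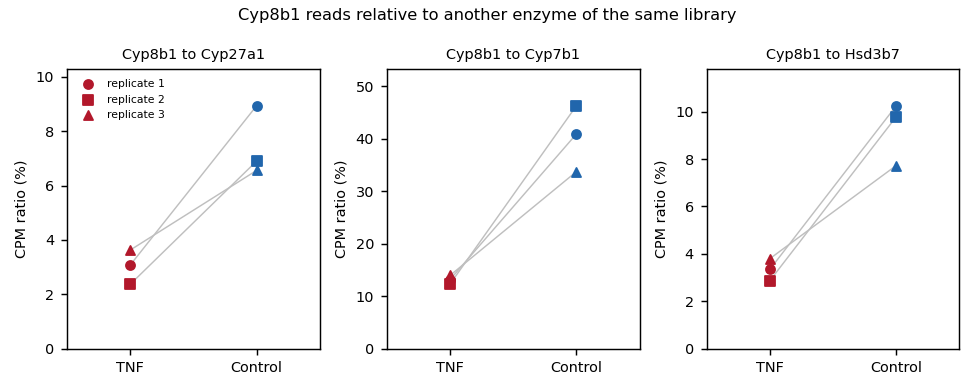
Cyp8b1 CPM as a percent of the CPM of Cyp27a1, Cyp7b1 and Hsd3b7 in the same library, TNF left and Control right, with grey lines joining equal replicate numbers. The percent of Cyp7b1 is 12.3 to 13.9 in TNF and 33.7 to 46.2 in Control.

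The 5 tested genes whose profile over the 6 libraries, centred on its own mean, lay closest to that of Cyp8b1 were Nlrp12, Sdr9c7, the sterol exporter gene Abcg8, G6pc (glucose-6-phosphatase) and Slc2a2 (the glucose transporter GLUT2). Their root mean square differences were 0.21, 0.25, 0.27, 0.28 and 0.29 on the log2(CPM + 1) scale. Nlrp12, the closest, was at 4.64, 4.29 and 6.65 CPM in TNF, against 11.5, 14.5 and 17.2 CPM in Control. Of the 5, Abcg8 alone was called in the unpaired fit. All 5 fell in the blocked fit (adjusted p 2.23e-07 to 0.000191, limma), where 11.2% of all genes tested were lower. These genes were picked by likeness to Cyp8b1 in the same libraries, so their lower values with TNF follow from the choice.

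Further genes of the pathway were taken in 3 lists. In the blocked fit, against which each list can be read, 11.2% of all genes tested were lower and 9.4% higher. Of 18 other enzymes and partners of bile acid and oxysterol metabolism 17 were tested and 9 fell, none rose and 8 did not pass in the blocked fit (11 lower and 0 higher at an unadjusted p under 0.05; blocked limma-voom 9 and 0). In the unpaired fit none passed (2 lower at an unadjusted p under 0.05; limma-voom called 0). The median change was -0.17. Slc27a2, an acyl-CoA synthetase that also activates bile acid precursors, fell by 0.79, at 114, 146 and 118 CPM in TNF, against 195, 270.6 and 193 CPM in Control. Scp2, whose peroxisomal form is the thiolase that cuts the side chain, fell by 0.38, the thioesterase Acot12 by 0.30 and Cyp39a1, which hydroxylates 24-hydroxycholesterol, by 0.28. Cyp46a1 was not tested, with 39 reads over the 6 libraries.

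Of 31 regulators 30 were tested. In the blocked fit 13 fell, 2 rose and 15 did not pass, where 11.2% of all genes tested were lower and 9.4% higher. The median change was -0.11, against -0.01 over all genes tested. In the unpaired fit none passed (8 lower and 0 higher at an unadjusted p under 0.05; limma-voom called 0). The bile acid receptor gene Nr1h4 was at 65.8, 80.3 and 62.6 CPM in TNF, against 94.2, 120.1 and 88.4 CPM in Control, and fell by 0.53. Each TNF value was below each Control value. Nr0b2, the SHP corepressor that FXR induces, was at 1.24, 0.644 and 1.68 CPM in TNF, against 1.77, 0.620 and 1.51 CPM in Control (change -0.06, blocked 95% interval -0.37 to 0.24, adjusted p 0.809 blocked, limma). Its groups overlapped, at 12 to 34 reads a library. Fgfr4 and Klb, the receptor and co-receptor for the gut hormone FGF15, fell by 0.45 and 0.49.

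Hnf4a was at 459, 402 and 393 CPM in TNF, against 623, 558 and 515 CPM in Control, with no overlap, and fell by 0.43 (adjusted p 0.177 unpaired and 3.06e-07 blocked, limma). Nr5a2 moved the other way: 45.8, 50.2 and 36.7 CPM in TNF stood against 36.7, 41.0 and 29.2 CPM in Control, and it rose by 0.31 (adjusted p 0.698 unpaired and 0.000568 blocked, limma). It was at 125%, 122% and 126% of Control in the 3 pairs. The largest falls among the regulators were those of Nr1i3 (the receptor CAR, 1.33), Onecut1 (HNF6, 0.81) and, after Nr1h4, Nr1i2 (the receptor PXR, 0.51). Nr1i3 overlaps Tomm40l, so reads of these cannot be told apart.

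Of 15 transporters 13 were tested; 6 fell, 3 rose and 4 did not pass in the blocked fit, and the unpaired fit called 2 lower and 0 higher (3 lower and 1 higher at an unadjusted p under 0.05; unpaired limma-voom called 2 lower and 0 higher). Those 2, Abcg5 and Abcg8, form the canalicular sterol exporter and fell by 1.29 and 0.94 on the log2 scale; they overlap each other in the genome. In the unpaired fit no transporter was called with no filter (3 lower and 1 higher at an unadjusted p under 0.05) or without any one library (2 to 6 lower and 1 to 3 higher), while both genes passed in the blocked fit. Abcg5 was at 3.16, 5.37 and 4.39 CPM in TNF, against 11.2, 13.5 and 10.8 CPM in Control. Slco1a4, an organic anion uptake carrier, fell by 0.70. The multidrug exporter Abcb1a rose by 0.92, at 28.1, 23.3 and 26.5 CPM in TNF, against 17.4, 9.39 and 14.2 CPM in Control. Slc51a and Slc51b, the basolateral bile acid exporter, had 12 and 28 reads over all libraries and were not tested.

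**Figure D4:**
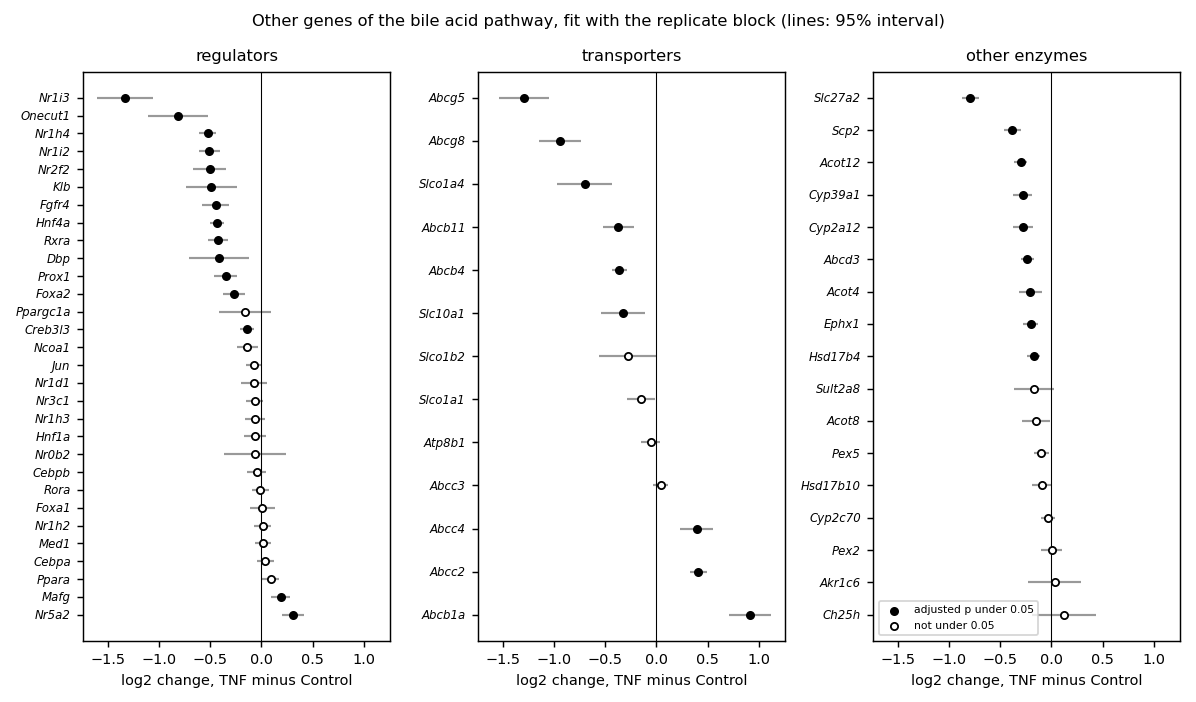
Log2 change (TNF minus Control) of the tested regulators, transporters and other enzymes of the bile acid pathway in limma with the replicate block; lines are 95% intervals and filled points passed an adjusted p of 0.05. Regulators run from -1.33 (Nr1i3) to 0.31 (Nr5a2) and transporters from -1.29 (Abcg5) to 0.92 (Abcb1a).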

How the data were processed

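PolyA RNA was sequenced paired-end and aligned with STAR 2.6.1a to mm10, per the submitters' processing notes. The counter, the annotation and the use of strand are not given in these sources. The authors deposited log2 CPM per library with a prior count (shared floor -3.35), beside the authors' own log2 fold changes, test scores and p-values. Genes were counted over the whole span, introns included, in 85.0% of cases and for all 10 enzymes. Subtracting the floor on the linear scale gave whole reads for 100.0% of values (tolerance 0.001 reads); the authors' library scaling was kept. Tested were genes with 15 reads in all and 10, at the median library's size, in 3 libraries (12293; 7471 were not) with limma 3.58.1 in R 4.3.3, with a trended prior variance on log2(CPM + 1), two-sided; code was tested on simulated data. Permutation tests used scipy 1.17.1. CPM with the authors' scaling differ from totals by 0.963 to 1.03 times.

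TNF and Control share replicate numbers in their titles. Deviations from group means correlated at 0.78, 0.79 and 0.79 for equal numbers and between -0.47 and -0.34 otherwise (within a group they sum to 0 by construction), so the numbers were taken to pair the libraries; the labels name no shared animal or day, and p-values may measure technical spread only. No libraries were duplicates (chi-square over its degrees of freedom at least 14.1). All 10 enzymes, the list genes with the 4 largest blocked changes, 6 regulators and 3 TNF response genes were named by rule. Members, lists, motifs and tests were chosen with earlier results of these data known. Alternatives were a replicate block, limma-voom, other scalings, filters and pseudocounts, the deposited log2 values and leaving out libraries. The exact interval of the Cyp7a1 ratio and the limit of 3 reads cover counting error only.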

Additional observations from a re-analysis of the deposited data

How the results depend on the processing

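Across all genes the unpaired limma fit called 53 and the fit with the replicate block 2530; with the block, limma-voom called 2520, total-read scaling 2492, median-of-ratios scaling 2572, no filter 1743, the filter at 1 CPM 2522, pseudocounts of 0.1 and 4 CPM 2497 and 2512, and the deposited log2 values 2496. With the block, leaving out a replicate number gave 1781 to 2288 (2192 without replicate 3). Without a block, no filter gave 31 and leaving out a library 9 to 30. Of the enzymes, 1 was called unpaired and 6 with the replicate block. With the block, limma-voom, total-read scaling, median-of-ratios scaling and no filter called 5, the filter at 1 CPM, a pseudocount of 0.1 CPM and the deposited log2 values 6, and a pseudocount of 4 CPM 7; leaving out a replicate number gave 5 to 7. Leaving out a library without a block gave 0 to 1 (3 or 4 lower at an unadjusted p under 0.05; limma-voom was not run there). Cyp8b1, Cyp27a1, Amacr, Acox2 and Baat fell in all 12 fits with the block, a count that includes the replicate-block fit itself. In the unpaired fit the sign of Hsd3b7 changed without TNF 1 (0.0073) or Control 3 (0.046; range over libraries left out -0.13 to 0.046), of Cyp7b1 without TNF 3 (-0.052) or Control 2 (-0.033; range -0.052 to 0.19) and of Slc27a5 without TNF 1 (0.15) or Control 3 (0.095; range -0.41 to 0.15). The Cyp8b1 ratios and the Cyp7a1 ratio kept their direction in every setting run; the Cyp7a1 ratio was 0.194 to 0.431 when a replicate number was left out. The causes of these shifts were not tested. Depth limits Cyp7a1, Cyp46a1, Slc51a, Slc51b and Vdr, which were under the filter on reads; with no filter Cyp7a1 passed neither fit.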
